A study of Mus musculus with 24 samples.

Results

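Interferon-stimulated genes are genes whose transcription rises when a cell senses interferon, and 9 of them were followed here in mouse liver: Isg15, Ifit1, Ifit2, Ifit3, Irf7, Gbp2, Gbp3, Rsad2 and Usp18. The 9 were chosen by symbol out of 24411 genes counted in each library, and all 9 were present in the files and kept for testing in every comparison. Their counts per library ranged from 12 reads (Ifit2, LKO pool at 12 h) to 1677 reads (Irf7, LKO pool at 48 h).

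Type I and type III interferons signal through their receptors to the kinases JAK1 and TYK2, which activate transcription factors of the STAT family. Together with IRF9, these bind the interferon-stimulated response element (ISRE) in the promoters of antiviral genes, while interferon-gamma acts through STAT dimers that bind the gamma-activated site (GAS). In liver, hepatocytes as well as Kupffer cells and recruited immune cells can respond, so a whole-liver RNA level sums over all of them.

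The libraries came from whole livers of male mice that were 2.5 months old and had been fasted for about 16 h, before APAP where it was given. HKO mice carried floxed E2f7 and E2f8 alleles and received the adeno-associated virus AAV8-TBG-Cre at 2 months of age, which expresses Cre in hepatocytes from the TBG promoter, and their controls were floxed mice given AAV8-TBG-Null (0 h, 3 mice each). LKO mice carried a deletion of both genes in the liver through Alb-Cre, which the paper calls lifelong. Alb-Cre is active in hepatocytes and also in bile duct cells. The controls of the LKO mice, marked WT in the labels, had no virus (0 h, 4 mice each). By the study's methods these controls were Cre-negative littermates with the same floxed alleles, and the LKO line was mostly FVB, of mixed background. The R26R mTmG reporter, a fluorescent marker of Cre activity, was present in both cohorts, controls included. After 300 mg/kg acetaminophen (APAP), the LKO cohort was sampled at 12, 24, 48, 72 and 96 h, with RNA of 3 mice pooled into 1 library per genotype and time point. No pool was repeated, so a difference between a pair of pools has no replicate check. No library came from mice without APAP at 12 to 96 h. A change from 0 h therefore joins APAP with the injection and the elapsed time, and these cannot be told apart. The 2 cohorts differ in virus, in the age at deletion and in their breeding, and these cannot be told apart. Their libraries differ as well. The share of reads that overlapped no annotated exon was 12.6 to 14.7% in the HKO cohort and 8.47 to 10.7% in the LKO cohort at 0 h. The part of this in the differences between cohorts was not tested.

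Reads on genes ranged from 12665686 to 19499897 per library, so that 3 counts, taken as the lowest detectable level, equal 0.154 to 0.237 CPM (read counts scaled to a common library size). This floor reflects counting error alone. Levels below are CPM scaled with TMM factors over the 24 libraries. Hepatocyte markers dominated every library, with 43534 to 129935 summed CPM over 5 genes. The deleted genes themselves give no check of the genotype, since counts were summed over whole genes and the deleted exons cannot be separated: E2f8 was 30.6 to 83.4 CPM in HKO and 14.8 to 26.3 CPM in AAV8-TBG-Null control livers, 18.0 to 34.1 CPM in LKO and 11.8 to 18.9 CPM in control livers at 0 h. LKO mouse 1 stood apart with the lowest hepatocyte sum and 323 CPM of Kupffer cell markers (6 genes), against 71.0 to 198 CPM in the other 13 mice.

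The promoters of 8 of the 9 genes were found among RefSeq transcription start windows (GRCm38.p6, 250 bases before to 50 after the start), all but Usp18. Searched on both strands with overlapping matches allowed, the ISRE letters (GAAA, any 2 bases, GAAA) were present in 6 of the 10 windows of these 8 genes, 1 window in each of 6 genes, and in 3.44% of 32851 promoter windows overall. The GAS letters TTCNNNGAA were found in 1 of the 10, a window of Ifit2, and in 8.30% of all windows. Ifit2 and Gbp3 had 2 start windows each, and both windows of Ifit2, the second of Gbp3 and that of Irf7 held no ISRE match of this form. The 160 bases before the start are shown for the 6 genes with a match, because the ISRE is the element named above for this gene class, with the ISRE match in capitals and in the direction of transcription (a match on the opposite strand reads TTTC, any 2 bases, TTTC).
Isg15: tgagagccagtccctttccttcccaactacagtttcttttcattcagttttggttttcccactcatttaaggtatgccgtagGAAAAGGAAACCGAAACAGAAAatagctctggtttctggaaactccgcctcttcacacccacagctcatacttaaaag
Ifit1: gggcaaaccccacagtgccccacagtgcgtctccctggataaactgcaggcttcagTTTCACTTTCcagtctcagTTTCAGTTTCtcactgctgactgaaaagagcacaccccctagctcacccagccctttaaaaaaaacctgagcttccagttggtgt
Ifit3: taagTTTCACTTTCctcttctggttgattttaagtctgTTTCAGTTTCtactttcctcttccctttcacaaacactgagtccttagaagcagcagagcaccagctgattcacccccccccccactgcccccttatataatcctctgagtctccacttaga
Gbp2: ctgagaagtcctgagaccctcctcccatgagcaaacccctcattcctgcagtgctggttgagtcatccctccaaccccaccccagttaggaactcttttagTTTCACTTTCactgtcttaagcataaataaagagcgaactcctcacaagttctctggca
Gbp3: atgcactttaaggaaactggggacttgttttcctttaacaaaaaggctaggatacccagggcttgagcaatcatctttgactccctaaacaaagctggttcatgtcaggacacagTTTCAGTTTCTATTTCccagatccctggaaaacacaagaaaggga
Rsad2: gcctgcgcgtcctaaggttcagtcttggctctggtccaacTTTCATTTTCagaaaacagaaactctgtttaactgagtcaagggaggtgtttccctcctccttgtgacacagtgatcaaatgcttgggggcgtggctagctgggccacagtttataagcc
The stretches are Isg15 at chr4:156200819-156200978 (minus strand), Ifit1 at chr19:34640729-34640888 (plus strand), Ifit3 at chr19:34583369-34583528 (plus strand), Gbp2 at chr3:142620503-142620662 (plus strand), Gbp3 at chr3:142559884-142560043 (plus strand) and Rsad2 at chr12:26456453-26456612 (minus strand). Isg15 held 3 overlapping matches between 78 and 57 bases before its start, Ifit1, Ifit3 and Gbp3 held 2 each, and Gbp2 and Rsad2 held 1 each. The match is a description of letters and not of binding.

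The genes lie at 6 places in the genome (GENCODE vM21, GRCm38). The 3 Ifit genes share a stretch of chromosome 19 (Ifit2 at 34550694 to 34576419, Ifit3 at 34583531 to 34588731, Ifit1 at 34640871 to 34650009). Gbp3 and Gbp2 lie near each other on chromosome 3 (142560026 to 142573209 and 142620602 to 142638008). Isg15 is on chromosome 4 (156199424 to 156200818), Irf7 on chromosome 7 (141262706 to 141266481), Rsad2 on chromosome 12 (26442746 to 26456452) and Usp18 on chromosome 6 (121245906 to 121270917). All 9 are annotated as protein coding, and counts cover their exons. The Ifit and Gbp genes have close relatives (such as Ifit3b, Ifit1bl1 and Gbp2b), and only uniquely mapped reads are counted, so their levels are uncertain to that extent.

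Per kilobase of exon, Irf7, the transcription factor that drives type I interferon genes, and Isg15, a ubiquitin-like protein that is conjugated to other proteins, were highest in the 14 livers at 0 h, with means of 7.85 ± 3.18 and 7.84 ± 3.31 CPM per kilobase (SD, n = 14). They did not separate, since Irf7 was above Isg15 in 7 of 14 mice. Ifit3 (4.99 ± 1.56) followed, then Usp18 (3.52 ± 1.49), Ifit1 (3.10 ± 1.80), Gbp3 (1.76 ± 0.865), Gbp2 (1.47 ± 0.621), Rsad2 (1.44 ± 0.613) and Ifit2 (0.690 ± 0.200), all in CPM per kilobase. Neighbors in this order overlapped in most cases. Usp18 exceeded Ifit1 in 9 of 14 mice and Gbp2 exceeded Rsad2 in 8 of 14, while Ifit1 exceeded Gbp3 in 14 of 14 and Rsad2 exceeded Ifit2 in 13 of 14.

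**Figure D1:**
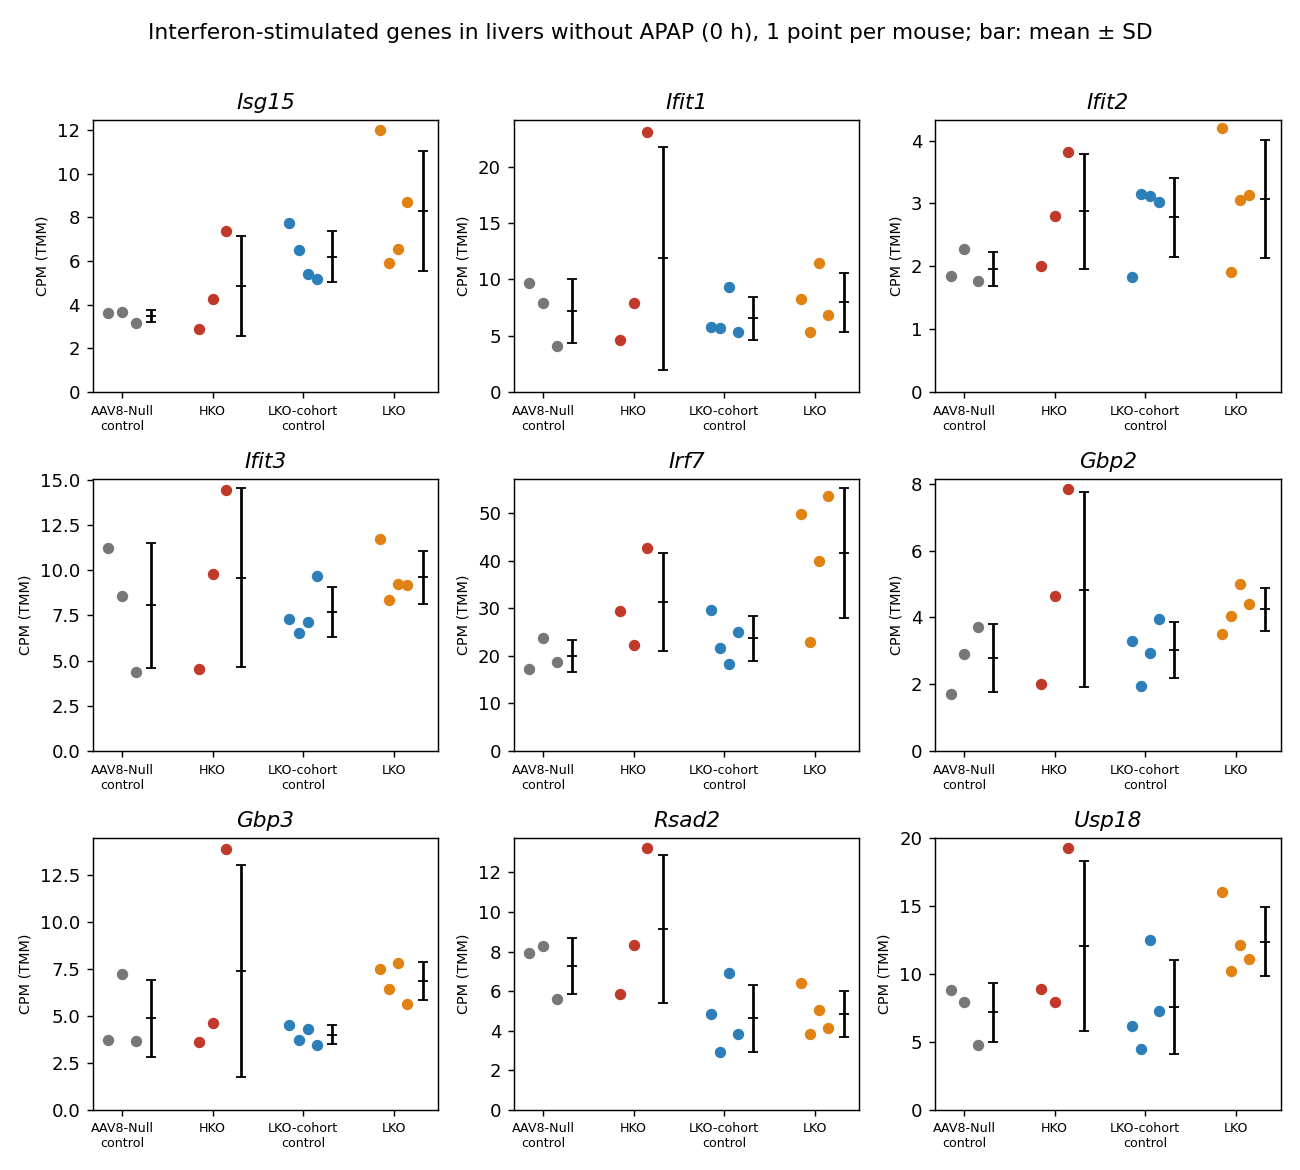
CPM (TMM-scaled, y axis from 0) of each gene in the 14 single livers at 0 h, by group, with points for mice and bars for mean ± SD. A single HKO mouse lies above the other HKO mice for 9 of 9 genes, and the LKO and control groups separate fully only for Gbp3.

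At 0 h, none of the 9 genes was called different between HKO and AAV8-TBG-Null control livers (called: adjusted p under 0.05 in edgeR's quasi-likelihood test and a fold change of at least 1.5), against 0.96% of 12397 genes tested. The 9 estimates were all above 0, as were 52.1% of all genes, with log2 fold changes from 0.25 (Ifit3) to 0.80 (Gbp2) and a median of 0.60, beside a median of 0.01 over all genes. Only Irf7 had an unadjusted p under 0.05 (12.9% of all genes), and DESeq2 also called 0. In bulk liver, a change in the number of cells of a type and a change of RNA per cell cannot be told apart.

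Irf7 was 29.3, 22.3 and 42.6 CPM in HKO mice 1 to 3 and 17.3, 23.8 and 18.7 CPM in the controls. The groups overlapped, because HKO mouse 2 lay below the highest control. The log2 fold change was 0.66 ± 0.23 (SE; adjusted p = 0.254, edgeR). Usp18, a protease that removes ISG15 from proteins and dampens signaling at the type I receptor, was 8.90, 7.96 and 19.2 CPM in HKO and 8.84, 7.93 and 4.74 CPM in control livers. Here HKO mice 1 and 2 lay close to the upper controls and mouse 3 lay far above them. Ifit1, whose protein binds viral RNA, was 4.60, 7.89 and 23.1 CPM in HKO and 9.69, 7.86 and 4.11 CPM in control livers. HKO mice 1 and 2 lay within the control range and mouse 3 lay far above it.

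HKO mouse 3 was the highest of the HKO livers for all 9 genes, and none of the 9 had groups without overlap (18% of all genes tested had). The guanylate-binding protein Gbp3 was 3.63 and 4.65 CPM in HKO mice 1 and 2 and 13.9 CPM in mouse 3, against 3.66 to 7.24 CPM in controls. Rsad2, which encodes the antiviral enzyme viperin, was 5.87, 8.34 and 13.2 CPM in HKO and 5.62 to 8.28 CPM in control livers. Without HKO mouse 3, the median log2 fold change of the 9 genes went from 0.60 to 0.04 and 5 of 9 stayed above 0. T and NK cell markers summed to 7.25 CPM (8 genes) in HKO mouse 3 and 2.02 to 3.03 CPM in controls, but to 8.60 CPM in HKO mouse 1, in which no member was above its mean over the 24 libraries. Monocyte and recruited macrophage markers (6 genes) were 24.1 CPM in HKO mouse 3, within the control range of 19.3 to 32.3 CPM. The part of these cells in the difference was not tested. Among the further pathway genes, Irf1, a transcription factor induced by interferon-gamma, was called higher in HKO (log2 fold change 0.79 ± 0.14; adjusted p = 0.0348, edgeR). Trim24, a repressor of interferon signaling, was called lower (-0.90 ± 0.16; adjusted p = 0.0321, edgeR). They stood among many pathway genes that were not called, and 0.96% of all genes were called. Whether both calls hold without HKO mouse 3 was not tested.

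In the LKO cohort at 0 h, again none of the 9 genes was called, and neither was any other gene (0% of 12426 tested). The 9 log2 fold changes of LKO over control were all above 0 (49.7% of all genes), from 0.07 (Rsad2) to 0.81 (Irf7), with a median of 0.42, beside a median near 0 over all genes. Gbp3, Irf7 and Usp18 had unadjusted p under 0.05, as did 2.83% of all genes, and DESeq2 called 0 of the 9.

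Gbp3 was 7.51, 6.42, 7.84 and 5.66 CPM in the 4 LKO mice and 4.54, 3.72, 4.29 and 3.45 CPM in the 4 controls. Every LKO mouse lay above every control, which held for no other member and for 1.18% of all genes, while 1.75% had groups without overlap in either direction. The log2 fold change was 0.78 ± 0.19 (SE; adjusted p = 0.999, edgeR). Irf7 was 49.7, 22.9, 39.9 and 53.7 CPM in LKO and 29.6, 21.6, 18.4 and 25.0 CPM in control livers. There, 3 of 4 LKO mice exceeded all controls and mouse 2 lay among them (log2 fold change 0.81 ± 0.25, adjusted p = 0.999, edgeR). Usp18 was 16.0, 10.2, 12.1 and 11.1 CPM in LKO mice and 6.14, 4.44, 12.5 and 7.26 CPM in controls, so that control mouse 3 alone reached the LKO range.

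Gbp2, a second guanylate-binding protein, was 3.51 to 5.01 CPM in LKO and 1.93 to 3.94 CPM in control livers, where control mouse 4 alone reached the LKO range. Isg15 was 5.93 to 12.0 CPM in LKO and 5.17 to 7.73 CPM in control livers. Rsad2 was 3.81 to 6.41 CPM in LKO and 2.94 to 6.90 CPM in control livers, with a 95% interval for the log2 fold change from -0.49 to 0.64. Without LKO mouse 1, the liver with high Kupffer cell markers, the median log2 fold change was 0.27 and 7 of 9 estimates were above 0. Across the other single mice left out in turn, the median ranged from 0.32 to 0.52.

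Comparing both cohorts at 0 h, with deletion as a covariate, 2 of the 9 genes differed, in opposite directions, where 12.6% of 12945 genes were called, 6.11% lower and 6.52% higher. Isg15 was lower in the AAV8-injected cohort and Rsad2 was higher. Isg15 was 3.62, 3.66 and 3.16 CPM in AAV8-TBG-Null controls and 7.73, 6.52, 5.39 and 5.17 CPM in controls without virus. These control groups did not overlap, which was so for 26.6% of all genes. In the HKO mice it was 2.91, 4.26 and 7.38 CPM, and in the LKO mice 5.93 to 12.0 CPM, so the deleted groups overlapped through HKO mouse 3. The log2 difference was -0.78 ± 0.21 (SE; adjusted p = 0.0108, edgeR).

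Rsad2 was 7.91, 8.28 and 5.62 CPM in AAV8-TBG-Null controls and 4.84, 2.94, 6.90 and 3.82 CPM in controls without virus, with overlap. With all 14 mice the log2 difference was 0.81 ± 0.22 (SE; adjusted p = 0.0108, edgeR). Taken from control mice alone, Isg15 was the only member called, and from deleted mice alone none was. The other 7 genes had log2 differences from -0.31 (Irf7) to 0.39 (Ifit1), and no member had all 6 mice of the AAV8 cohort beyond all 8 of the LKO cohort (9.12% of all genes).

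Of 37 further antiviral genes tested between the cohorts, 8 were lower in the AAV8 cohort and 1 higher, where 6.11% of all genes were called lower and 6.52% higher. Bst2, which tethers budding virus, was 74.6 to 108 CPM in the 6 AAV8-cohort mice and 179 to 281 CPM in the 8 others without overlap (log2 difference -1.26 ± 0.12; adjusted p = 5.25e-06, edgeR). Ifi27l2a, Ifitm3, Isg20, Ifi35, Ube2l6 and Uba7 (the latter pair being enzymes that attach ISG15) and Ifi27 were the other lower genes, and Helz2 was higher. Among 15 antigen presentation genes, Psmb8, Psmb9, Psmb10, H2-K1 and H2-Eb1 were lower and Nlrc5 was higher. Of 19 interferon-gamma GTPases and chemokines, Igtp was lower and Gbp9 higher, a share near that of all genes. Of 13 sensors Mb21d1 was higher, as was Trim24 of 5 negative regulators, and none of either list was lower. The summed monocyte and recruited macrophage markers were 17.1 to 32.3 CPM in the AAV8 cohort and 27.0 to 59.4 CPM in the LKO cohort at 0 h, with 2 of 6 markers called lower. Kupffer cell markers summed to 71.0 to 147 CPM and 122 to 323 CPM (2 of 6 called lower) and sinusoidal endothelial cell markers to 109 to 161 CPM and 165 to 204 CPM (2 of 5 called lower, groups without overlap). Of the B cell markers, 1 of 3 tested was called lower. The part of these cells in the differences was not tested.

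The effect of deletion itself did not differ detectably between cohorts for any of the 9 genes (HKO effect minus LKO effect; 0 of 9 called and 0% of 12945 genes, 0 of 9 with an unadjusted p under 0.05, against 4.47% of all genes, and 0 of 9 called by DESeq2). The log2 differences ranged from -0.17 (Gbp3) to 0.42 (Ifit1), with wide intervals, such as -0.89 to 0.59 for Irf7 and -1.23 to 0.88 for Gbp3 (95%). Effects of this size in either direction were therefore not detectable with 14 mice.

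**Figure D2:**
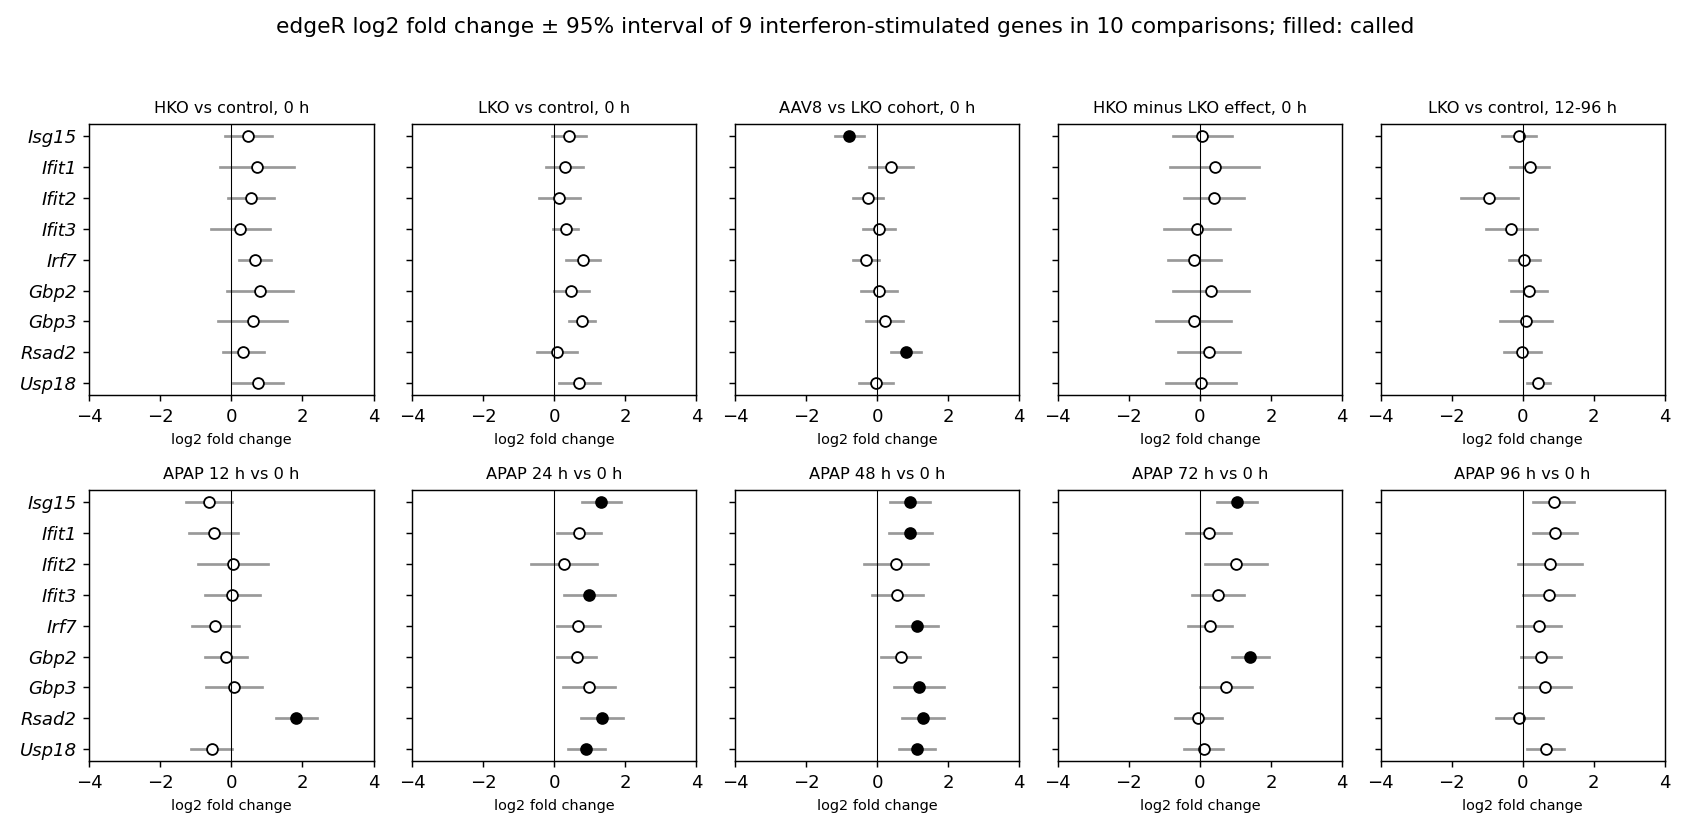
Log2 fold changes (x axis) of the 9 genes in 10 comparisons, with 95% intervals from the edgeR standard error and filled points for called genes. Before APAP only Isg15 and Rsad2 are filled, between cohorts, and calls after APAP number 1, 4, 6, 2 and 0 from 12 to 96 h.

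After APAP, Rsad2 was the member called earliest. Compared with 0 h, and with genotype as a covariate (2 pools against 8 mice), it was the only member called at 12 h, when 31% of 13855 genes were called and 16.7% were called higher. Rsad2 was 18.7 CPM in the control pool and 14.1 CPM in the LKO pool, against 2.94 to 6.90 CPM in the 8 mice at 0 h. Both pools lay above every mouse, at a log2 fold change of 1.83 ± 0.29 (SE; adjusted p = 0.00024, edgeR). The other 8 genes had estimates from -0.64 (Isg15) to 0.09 (Gbp3), and the median of the 9 was -0.15.

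For Ifit2, Ifit3 and Gbp3, the estimates near 0 at 12 h average a high control pool and a low LKO pool. Ifit2, a relative of Ifit1 in the same cluster, was 5.91 CPM in the control pool and 0.704 CPM in the LKO pool, against 1.83 to 4.20 CPM in the mice. Ifit3 was 13.4 and 3.87 CPM (mice: 6.52 to 11.7 CPM), and Gbp3 was 7.73 and 2.58 CPM (mice: 3.45 to 7.84 CPM). In each of these 3 the LKO pool lay below all 8 mice, and the control pool lay above all 4 control mice. The share of all genes with pools beyond the mice in this way was not counted. At 2-fold, 3 of 9 genes were lower in the LKO than in the control pool and 0 higher, where 12% and 9.3% of all genes were. Isg15, Ifit1, Irf7, Gbp2, Rsad2 and Usp18 differed less, with log2 ratios of LKO over control from -0.50 (Ifit1) to 0.67 (Usp18). These differences rest on 1 pool per genotype. The pools also differed in reads that overlapped no annotated exon, with 13.6% in control and 10.9% in LKO, against 8.47 to 10.7% in the 8 mice.

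The change from 0 h was then compared between genotypes in a single fit over the 18 libraries of the LKO cohort, a comparison added after the values had been seen. Its spread comes from the 8 mice at 0 h, and each pool is assumed to vary like them. At 12 h, 1 of 9 genes was called, where 0.505% of 13855 genes were. This was Gbp3, whose change in LKO minus that in control was -2.37 ± 0.43 on the log2 scale (SE; adjusted p = 0.0432, edgeR). Ifit3 (-2.13 ± 0.41, adjusted p = 0.0509) and Ifit2 (-3.22 ± 0.70, adjusted p = 0.0758) did not pass in edgeR, and DESeq2 called all 3. The call of Gbp3 was lost in 7 of the 8 fits that left out a mouse and with library size only, and was kept with RLE scaling. Its size was -2.46 to -2.30 in the fits that left out a mouse and -2.35 with library size only. Of the further pathway genes, Ifngr1, a chain of the interferon-gamma receptor (-1.76 ± 0.33), and Cxcl9, a chemokine induced by interferon-gamma (-2.28 ± 0.41), were also called. Ifngr1 was 58.9 CPM in the control and 19.2 CPM in the LKO pool at 12 h, and Cxcl9 was 6.24 and 1.88 CPM.

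**Figure D3:**
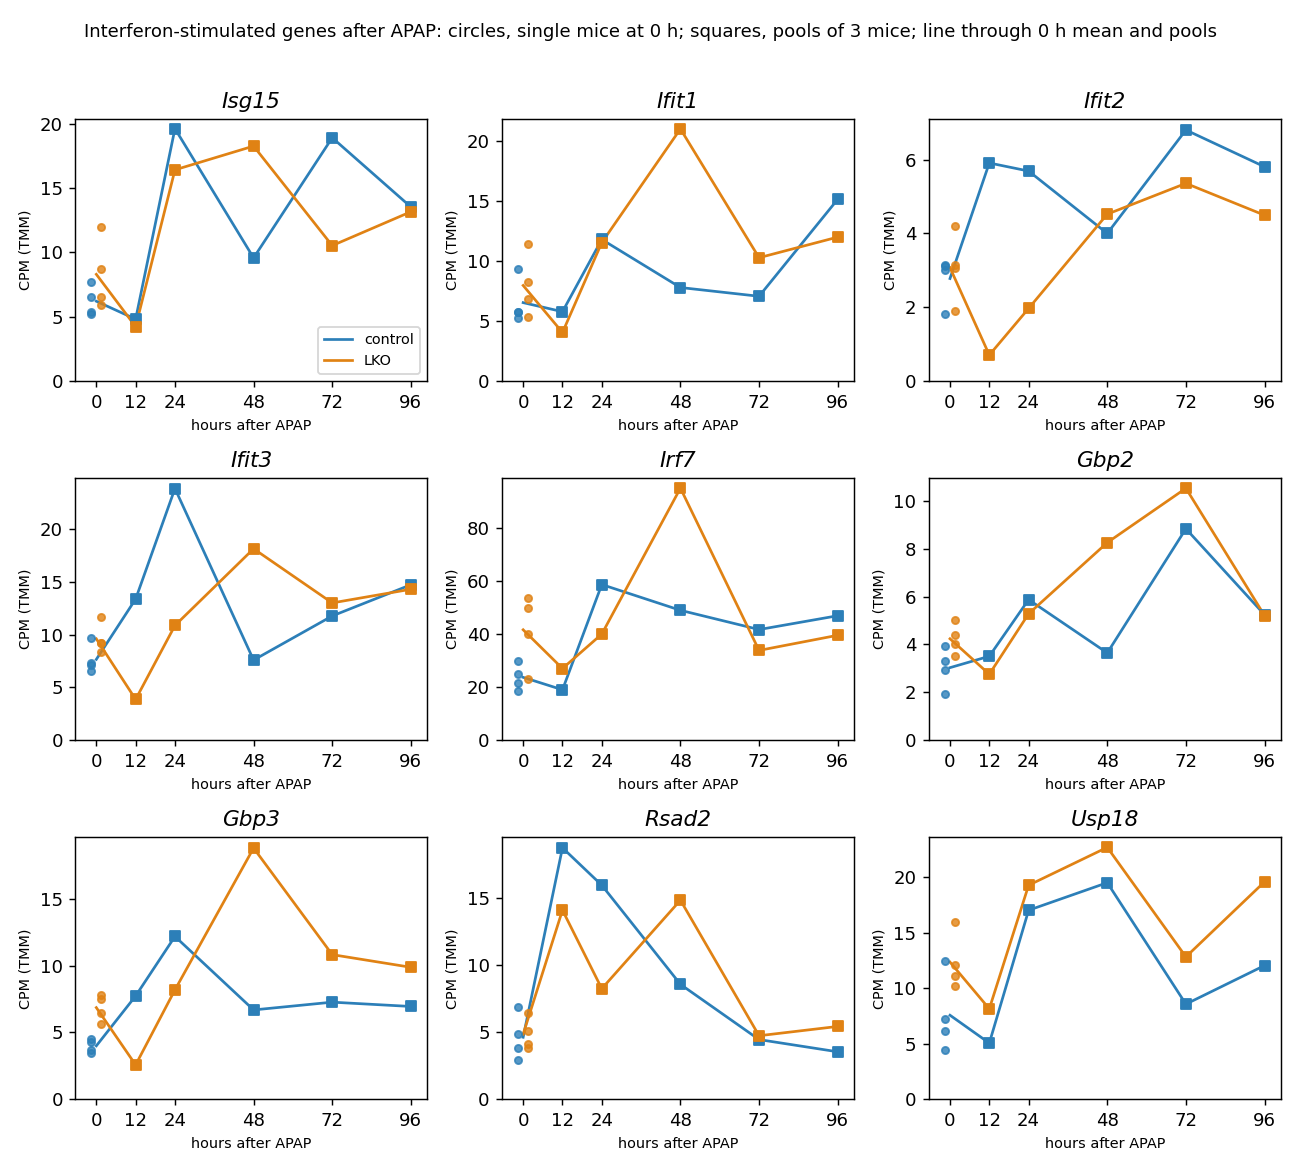
CPM (TMM-scaled, y axis from 0) against hours after APAP for control (blue) and LKO (orange) livers, with circles for single mice at 0 h and squares for pools of 3 mice. The highest pool is at 24 h for 4 of 9 genes in control and at 48 h for 7 of 9 in LKO livers, Rsad2 rises by 12 h in both, and Usp18 lies higher in LKO at 5 of 5 times.

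At 24 h, 4 of the 9 genes were higher than at 0 h, where 25.6% of genes were called and 13.9% were called higher. Isg15 was 19.6 CPM in the control and 16.4 CPM in the LKO pool, above the 5.17 to 12.0 CPM of all 8 mice (log2 fold change 1.32 ± 0.28; adjusted p = 0.00259, edgeR). Rsad2 (1.35 ± 0.30) and Usp18 (0.90 ± 0.27) also rose, and Ifit3 passed narrowly (0.99 ± 0.36; adjusted p = 0.0486, edgeR). With library size only, 7 were called, the others being Ifit1, Gbp2 and Gbp3. Without the control pool at 24 h, none of the 4 was called, with log2 fold changes of 1.09 for Isg15, 0.71 for Rsad2, 0.68 for Usp18 and 0.27 for Ifit3.

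In the control pool at 24 h, 7 of 9 genes were at least 2-fold above the control mean at 0 h (13.3% of all genes), and in the LKO pool only Isg15 was (1 of 9; 9.66%). Without scaling factors the counts were 9 and 1, with the all-gene median of the control pool at 0.19 in place of 0.03. Ifit3 was 23.9 CPM in the control and 10.9 CPM in the LKO pool, where the LKO mice at 0 h were 8.33 to 11.7 CPM. The control pool was thus the highest of all 24 libraries, and the LKO pool stayed within its own baseline range. Irf7 was 58.6 and 39.9 CPM, with LKO mice at 22.9 to 53.7 CPM. Gbp3 was 12.2 and 8.18 CPM. The change from 0 h in LKO minus that in control ranged from -1.67 (Ifit2) to -0.32 (Ifit1) on the log2 scale, and 4 genes had an unadjusted p under 0.05 (4.03% of all genes), but 0 were called (0.00722% of all genes; DESeq2 also called 0 of 9).

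At 48 h, 6 of the 9 genes were called higher than at 0 h, where 16.4% of genes were called and 9.9% were called higher. They were Rsad2 (log2 fold change 1.29 ± 0.30), Gbp3 (1.17 ± 0.36), Irf7 (1.13 ± 0.30), Usp18 (1.12 ± 0.26), Ifit1 (0.94 ± 0.31) and Isg15 (0.92 ± 0.29), with adjusted p from 0.00773 to 0.0468 in edgeR. The remaining 3 had estimates of 0.54 (Ifit2), 0.57 (Ifit3) and 0.67 (Gbp2). Without the LKO pool at 48 h only Usp18 was called, without the control pool 3 were (Gbp3, Ifit1 and Rsad2), and without control mouse 2 at 0 h also 3 (Irf7, Rsad2 and Usp18). Leaving out any of the other 7 mice kept 4 to 6 calls.

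At this time the LKO pool was the higher of the pair for 9 of 9 genes (50.1% of all genes), and at least 2-fold higher for 4 (7.19% of all genes). Irf7 was 94.8 CPM in the LKO pool, the highest of all 24 libraries, and 48.9 CPM in the control pool. Gbp3 was 18.8 and 6.68 CPM, Ifit1 was 21.0 and 7.80 CPM, and Ifit3 was 18.2 and 7.60 CPM. The LKO pool lay above all 8 mice in each of these, whereas the control pool lay within the range of the 8 mice in all 4. How many of all genes had an LKO pool above all mice was not counted. Against the 4 control mice alone, the control pool was within their range for Ifit1 and Ifit3 and above all of them for Gbp3 and Irf7. Against their own baselines, 5 of 9 genes in the LKO pool (8.55% of all genes) and 2 of 9 in the control pool (15.1%) were at least 2-fold higher. Without scaling factors these counts were 6 and 4, with the all-gene median of the control pool at 0.35 in place of 0.03 on the log2 scale. The change from 0 h in LKO minus that in control ranged from -0.49 (Usp18) to 1.14 (Ifit1) on the log2 scale, and 0 of 9 were called (0.498% of genes; DESeq2 also 0). Only Ifit3 (0.93 ± 0.39) had an unadjusted p under 0.05, as did 13.3% of all genes.

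Over the 5 pools of each genotype, the highest value fell at 48 h for 7 of 9 genes in LKO and at 24 h for 4 of 9 in control livers. Ifit2 and Gbp2 were highest at 72 h in both. In the control series, Rsad2 was highest earliest (12 h) and Ifit1 latest (96 h), with Usp18 between them (48 h). The average of the 9 standardized log2 levels was 1.30 in the control pool at 24 h and 1.65 in the LKO pool at 48 h, the highest of the 24 libraries, and -1.06 in the LKO pool at 12 h, which only AAV8-TBG-Null mouse 3 undercut with -1.16. With 1 pool per point, these peaks have no replicate check, and the time of the highest pool was not counted over all genes.

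**Figure D4:**
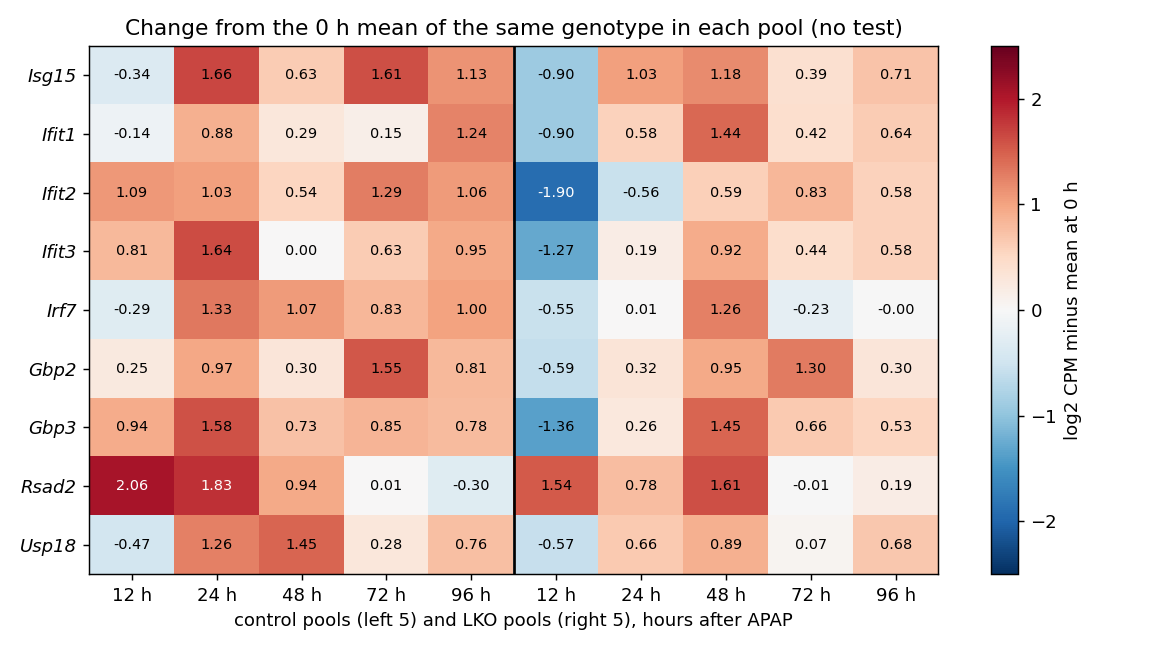
Log2 CPM of each gene in each pool minus the 0 h average of its own genotype (4 mice) (color scale and printed values), for control pools at the left and LKO pools at the right. The 12 h column holds 8 of 9 negative values in LKO and 4 of 9 in control pools (48.1% and 49% of all genes were above 0), and the strongest column is 24 h in control and 48 h in LKO.

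At 72 h, 2 of 9 genes were called, both higher (16.8% of genes called, 11% called higher). Gbp2 was 8.84 CPM in the control and 10.5 CPM in the LKO pool, against 1.93 to 5.01 CPM in the mice (log2 fold change 1.41 ± 0.27; adjusted p = 0.00133, edgeR). Isg15 was 18.9 and 10.5 CPM, so the LKO pool lay within the range of the LKO mice while the control pool was above all mice (1.04 ± 0.29; adjusted p = 0.0181, edgeR). Without the control pool at 72 h neither was called, with log2 fold changes of 1.36 for Gbp2 (adjusted p = 0.0510, edgeR) and 0.40 for Isg15 (adjusted p = 0.677, edgeR). Rsad2 had returned to 4.45 and 4.74 CPM, inside the range at 0 h, with a log2 fold change of -0.05 ± 0.34.

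At 96 h, 0 of 9 genes were called, as were 0.462% of all genes, with 3 of the 9 (Isg15, Ifit1 and Usp18) at an unadjusted p under 0.05 (15.5% of all genes) and 0 called by DESeq2. The estimates were above 0 for 8 of 9 (48.2% of all genes), with a median of 0.65 beside -0.02 over all genes. Isg15 was still 13.5 CPM in the control and 13.2 CPM in the LKO pool, above all 8 mice at 0 h. Rsad2 was 3.54 and 5.43 CPM, inside the range of the mice. The genotypes did not differ detectably in their change at 72 or 96 h (0 of 9 called at each, 0% of genes, and 0 by DESeq2), with 1 gene (Isg15 at 72 h, -1.29 ± 0.52) and 0 genes at an unadjusted p under 0.05, where 8% and 5.12% of all genes were.

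Averaged over the 10 pools, each time point fitted as its own block, none of the 9 genes was called between LKO and control livers, against 0.579% of 12782 genes, and DESeq2 called 0 of 9. Usp18 was higher in the LKO pool throughout (8.15, 19.3, 22.7, 12.8 and 19.6 CPM, against 5.07, 17.0, 19.5, 8.57 and 12.0 CPM), with a log2 difference of 0.44 ± 0.17 (adjusted p = 0.209, edgeR). The log2 difference of Usp18 was already 0.71 ± 0.29 at 0 h. Its change from 0 h in LKO minus that in control ranged from -0.53 (24 h) to -0.02 (96 h). Ifit2 was higher in the LKO pool at 48 h and lower at the other times, as was Isg15. Ifit2 was 0.704, 1.97, 4.52, 5.36 and 4.50 CPM in LKO pools, against 5.91, 5.69, 4.00, 6.81 and 5.81 CPM in control pools, with a log2 difference of -0.94 ± 0.41 (adjusted p = 0.267, edgeR). All genes but Usp18 changed sides between times, and the log2 differences of the other 7 were from -0.32 (Ifit3) to 0.20 (Ifit1).

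No interferon could be tested: of 20 ligand genes, none passed the filter, Ifnb1 had 0 reads in all 24 libraries, which allows up to 0.237 CPM in the shallowest, and Ifng, Ifna7 and Ifnk had at most 3, 4 and 4 reads in a library. Of the receptors, the type I chains Ifnar1 and Ifnar2 were not called at any time, while Ifngr1 was called higher at 12, 24 and 72 h (0.98, 0.72 and 0.80). The 12 h value of Ifngr1 averages pools that changed unlike each other, since its change in LKO minus that in control was -1.76 ± 0.33 (SE). Il10rb was called higher at 48 and 72 h (0.92 and 1.36) and the low-count Ifnlr1 at 12 and 48 h.

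Of 38 further antiviral genes, 11 were lower at 12 h and 5 higher, where 14.3% of all genes were called lower and 16.7% higher, so that the higher share was near that of all genes. Lower were Oas2, Ube2l6, Bst2 (-1.45 ± 0.29), Herc6, Oas1b, Ddx60, Ifitm3, Uba7, Samhd1, Ifi35 and Parp14, and higher were Ifit1bl1, Oasl1, Mx2 (0.90 ± 0.31), Helz2 and Trim25. Of 19 interferon-gamma GTPases and chemokines, 6 were lower (Tgtp1, Igtp, Gbp8, Gbp7, Ifi47 and Irgm2) and 2 were higher (Cxcl10, 2.48 ± 0.39, and Gbp9). Of 15 antigen presentation genes, 8 were lower (Psmb9, Psmb8, Psmb10, H2-K1, Tapbp, Tap1, H2-Eb1 and Ciita) and 1, Nlrc5, was higher. H2-Eb1 and Ciita had too few reads in the pools for a fold change. Of the IRF factors, Irf2, Irf3 and Irf9 (-0.59 ± 0.17) were lower and Irf8 was higher. Of 13 sensors tested, Zbp1 (-1.72 ± 0.41), Ddx58, Dhx58 and Ifih1 were lower and the kinase Tbk1 was higher. Of 5 negative regulators, 3 were higher, namely Socs1 (1.83 ± 0.63), Socs3 and Ptpn2. Rsad2 was thus with Cxcl10, Oasl1, Ifit1bl1 and Mx2 on the rising side, and 0 of the 9 members were called lower.

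At 24 h, 4 of the 38 antiviral genes were higher (Oasl1, Trim30a, Xaf1 and Eif2ak2) and 1 was lower (Oas2), where 13.9% and 11.7% of all genes were, so the higher share was not above that of all genes. At 48 h, 8 were higher (Ifi44, Oas1a, Ifi27l2a, Oasl1, Oasl2, Trim30a, Xaf1 and Lgals3bp) and 0 lower, where 9.9% and 6.52% of all genes were. The median log2 fold change of the 38 genes went from -0.60 at 12 h through 0.29 at 24 h to 0.55 at 48 h, while that of the 9 members went from -0.15 through 0.90 to 0.94. Of the 19 GTPases and chemokines, 3 were higher at 24 h (Gbp9, Tgtp1 and Ifi47, in order of size) and 2 at 48 h (Cxcl10 and Gbp9), and 0 were lower at either time. Of the 13 sensors, Zbp1, Tlr3 and Dhx58 were higher at both times and Mavs, the adaptor of the RNA sensors, was lower at both (-0.96 and -0.96). Irf2 was lower at both times, Irf3 was lower at 48 h, and the negative regulator Ptpn2 was higher at 24 h. Zbp1, a sensor of Z-form nucleic acid, turned from -1.72 at 12 h to 1.62, 1.56 and 1.06 over the next 3 time points. Its levels in the control series were 0.650, 13.8, 8.00 and 9.62 CPM in that order. Of 15 antigen presentation genes, 3 were lower at 24 h (Cd74, H2-Ab1 and Ciita), 3 at 48 h (Cd74, H2-Aa and H2-Ab1) and 0 were higher at either time. At 72 h, 3 of the 38 antiviral genes (Oas1a, Ifi27l2a and Trim30a) and 1 of the 19 GTPases and chemokines (Gbp9) were called higher. Neither share was above the 11% of all genes called higher. Of the 13 sensors, Mb21d1, Aim2, Tlr7 and Zbp1 were higher, as was Irf8, beside the members Isg15 and Gbp2. At 96 h none of these list genes was called.

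Markers of recruited immune cells moved over the same time course. Monocyte and recruited macrophage markers summed to 27.0 to 59.4 CPM in the 8 mice, and to 60.2, 76.0, 107, 445 and 169 CPM in control and 46.1, 61.2, 112, 383 and 53.8 CPM in LKO pools from 12 to 96 h. Of these 6 markers, 2, 4, 6, 6 and 2 were called higher over the 5 time points, where 16.7%, 13.9%, 9.9%, 11% and 0.332% of all genes were. The sums were highest at 72 h in both genotypes, when 2 members were called, and not at 24 or 48 h. Neutrophil markers (4 genes) were 2.36 to 11.3 CPM in the mice and up to 30.6 CPM in the control pool at 48 h, and 3, 3, 2, 1 and 0 of them were called higher from 12 to 96 h (median log2 fold change 2.58 at 24 h). T and NK cell markers summed to 7.63 CPM in the LKO pool at 48 h and to 1.09 CPM in the control pool at 24 h, the 2 pools with the highest member average. Plasmacytoid dendritic cell markers (4 genes) summed to at most 3.73 CPM in any library, and 1 of the 2 tested, Siglech, was called higher at 72 h (2.36 ± 0.56 on the log2 scale). Of 6 Kupffer cell markers, 1 was called lower at 12 h and 2 at 24 h, where 14.3% and 11.7% of all genes were. Called higher were 1 of them at 24 h, 1 at 48 h and 2 at 72 h (median log2 fold change -0.91 at 24 h and 0.87 at 72 h). Of 4 stellate cell markers, 1 was called lower at 12 h and 2 higher at 72 h. The part of these cells in the members' changes was not tested.

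**Figure D5:**
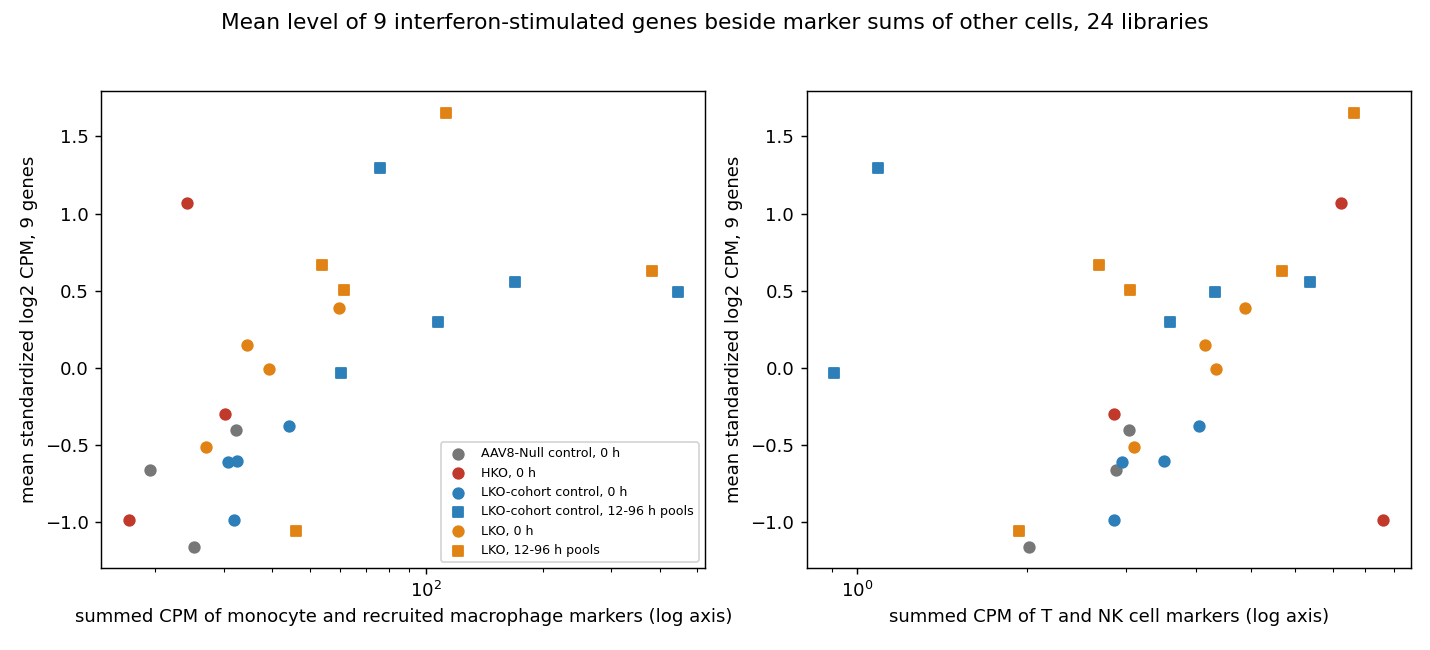
Mean of the standardized log2 CPM of the 9 genes (y axis) against the summed CPM (log x axis) of monocyte and recruited macrophage markers (left) and T and NK cell markers (right), 1 point per library, circles at 0 h and squares for pools. The pools with the highest monocyte sums (445 and 383 CPM, at 72 h) have member averages of 0.49 and 0.63, below the 1.30 and 1.65 of the control pool at 24 h and the LKO pool at 48 h.

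The 9 genes varied together from liver to liver. After subtracting group means, the correlations of log2 CPM between members over the 14 mice at 0 h ran from 0.27 to 0.89 over 36 pairs, with a median of 0.57 and 0 negative, and over the 18 libraries of the LKO cohort the median was 0.62 (lowest -0.01). These points share the scaling of their libraries, and HKO mouse 3 is among the 14. Against the mean of the other 8 genes, Ifit1 followed most closely over the mice (r = 0.85) and Gbp3 over the 18 libraries (r = 0.92). Rsad2 was close to the others over the mice (r = 0.81) and far from them over the 18 libraries (r = 0.20), where it was high at 12 h.

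Over the 14 mice, the genes most like the member average by Pearson correlation, out of 12936, included Dync1li2 (r = 0.93), Plk1 (0.91), Samd9l (0.89), Gbp8 (0.89), Parp14 (0.86), Trim30a (0.86), Ccr2 (0.86), Tgtp1 (0.85) and Ifih1 (0.85). Over the 18 libraries, out of 13846, the 10 most alike were Ifi44 (r = 0.94), Trim30a (0.88), Samd9l (0.87), Tlr3 (0.87), Uchl3 (0.87), Xaf1 (0.87), Manba (0.85), Cfap36 (0.85), Snhg14 (0.85) and Shisa5 (0.85). Trim30a and Samd9l were in both lists. The order is a description over samples that share mice, depth and, in the second set, the time course.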

How the data were processed

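PolyA RNA from whole liver was sequenced in 24 libraries, 14 of single mice at 0 h and 10 of pools of 3 mice at 12 to 96 h. Per the labels and the study's methods, the authors trimmed reads with Trimmomatic and mapped them to mm10 with STAR. The deposited values are raw STAR counts per gene, and the column that disregards strand was used, so a gene and an antisense partner cannot be told apart. Of the reads per library, 7.29 to 14.7% overlapped no annotated exon and were left out, as were unmapped, multiply mapped and ambiguous reads. Reads on genes ranged from 12665686 to 19499897 per library, with counting error largest for Ifit2.

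Levels are CPM with TMM factors over all libraries, and log2 CPM uses a prior count of 2. Tests used edgeR 4.0.16 (quasi-likelihood F test, filterByExpr, TMM, Benjamini-Hochberg adjustment over all genes tested, R 4.3.3), and calls needed an adjusted p below 0.05 together with a change of 1.5-fold or more. Each comparison was fitted with the libraries it is about, and cohort comparisons had deletion, and APAP comparisons genotype, as a covariate. The fits were tested on simulated counts. DESeq2 1.42.0, other scalings and filters, single libraries left out and replicate blocks were alternatives. P-values at 0 h measure the spread between mice. In the comparisons of a time point with 0 h, the spread also holds the disagreement of control and LKO pools. The fit over the 10 pools alone holds no mouse at 0 h, so its spread is that between pools. The change in LKO minus that in control takes its spread from the mice at 0 h. Per-kilobase values use exon lengths from GENCODE vM21.

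The members and the pathway and marker lists were chosen with earlier results of these data known. Beyond the members, genes were named if they were called in a comparison, were among the 2 list genes with the largest change, stood on a short fixed list (such as Bst2 and Zbp1) or were among the 10 genes most like the member average. A gene that this rule would name is not reported here.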

Additional observations from a re-analysis of the deposited data

Results flagged for a closer look

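In 2 of 18 groups of 4 mice (9 genes in LKO and control livers at 0 h), a single mouse lay farther from the rest than Dixon's 95% limit, where chance gives about 1 in 20. Ifit1 was 9.35 CPM in control mouse 3, with the other 3 controls at 5.29 to 5.78 CPM (gap over range 0.879). Ifit2 was 1.83 CPM in control mouse 1, with the others at 3.02 to 3.15 CPM (0.898). Gbp3 is listed for a difference between genotypes, since its change from 0 h to 12 h after APAP was lower in LKO than in control livers by -2.37 on the log2 scale (adjusted p = 0.0432, edgeR's quasi-likelihood test), with 1 pool per genotype, a spread taken from the untreated mice and a test added after the values had been seen. The call was lost in 7 of the 8 fits that left out a mouse and with library size only. Since the test was chosen from these pools, it is no independent evidence of the difference between them.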

How the results depend on the processing

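Of 1674 member estimates under alternatives, 94 changed sign, 55 lost a call, 9 gained a call and 3 reversed; prior count 0.5 moved 0 of 216 library values by 1 SD of the mice at 0 h or more. Without scaling factors, counts of members at least 2-fold above 0 h went from 7 to 9 (control, 24 h), 2 to 4 (control, 48 h), 5 to 6 (LKO, 48 h) and 4 to 2 (control, 96 h), and RLE kept all of them. Counts of called members stayed within 1.5 times in all alternatives run for HKO and LKO at 0 h, their difference, LKO against control over 12 to 96 h, and 96 h (all 0). Between cohorts, 2 became 1 in controls only and 0 in knockouts only (2 to 2 with a mouse left out). After APAP, 1 call at 12 h became 2 in control and 3 in LKO livers only (1 to 2 with a library left out), 4 at 24 h became 7 with library size only and 0 in LKO livers only (0 to 4), 6 at 48 h became 1 in control and 2 in LKO livers only (1 to 6), and 2 at 72 h became 0 in LKO livers only (0 to 2). Fits within a genotype hold fewer samples, and without a pool the lone pool is assumed to vary like the mice. The change in LKO minus control at 12 h gave 1 call, 3 with DESeq2, 0 with library size only, 2 with at least 10 counts in every library and 0 to 1 with a mouse left out, and 0 at 24 to 96 h in all alternatives run. Reversed at 12 h were Ifit3 (-1.28) and Gbp3 (-1.38) in LKO livers only and Ifit2 (-1.94) without the control pool, fits in which the LKO pool stands alone. Without the LKO pool Ifit2 was 0.95, of the same sign as with both pools. Leaving out pools, and the change in LKO minus control, were chosen after seeing the data. Genes called over all alternatives ranged from 31 to 331 (119) for HKO, 0 to 3 (0) for LKO, 813 to 3914 (1635) between cohorts, 0 to 21 (0) for the difference of effects, 0 to 606 (74) over 12 to 96 h, and 1414 to 4817 (4299), 1062 to 3964 (3549), 280 to 2696 (2275), 375 to 2565 (2329) and 7 to 338 (64) from 12 to 96 h after APAP. Replicate numbers did not pair the samples (correlations of same-numbered mice 0.17, -0.05 and 0.09 for HKO and -0.37, -0.18, 0.07 and 0.22 for LKO), and not every mouse correlated best with its own number. With the replicate block, 0, 0, 2 and 0 members were called at 0 h in HKO, LKO, between cohorts and in the difference of effects, with 263 genes called for HKO and 0 for LKO. Depth limits Ifit2 most, at 12 reads in the LKO pool at 12 h.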
